A study of Mus musculus with 2 samples.

Results

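The Hippo pathway effectors and kinases examined here were 10 genes, chosen by name and found by symbol among the 24411 genes listed for each library: the coactivators *Yap1* and *Wwtr1*, the DNA-binding factors *Tead1*, *Tead2*, *Tead3* and *Tead4*, the kinases *Lats1* and *Lats2*, the upstream regulator *Nf2* and the cofactor *Vgll4*. They were measured by laser capture microdissection (LCM, in which areas of a stained section are cut out with a laser) followed by RNA-seq of the whole cut area, on frozen sections of mouse brain at embryonic day 16.5. The data comprised 2 libraries, 1 from the subventricular zone (SVZ), a germinal layer near the lateral ventricle, and 1 from the cortex, where newly made neurons settle. No strain, sex, genotype or treatment is given in the labels for either area, and the number of animals and sections behind each library is not given in the sources used here. All 10 members are annotated as protein coding.

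The Hippo pathway is a kinase cascade that restrains growth. Upstream regulators such as Nf2 (Merlin) lead to activation of the Lats kinases, which phosphorylate Yap1 and Wwtr1 (also called TAZ) and keep them out of the nucleus. When the kinases are inactive, Yap1 and Wwtr1 enter the nucleus and activate genes through the Tead factors, with which Vgll4 competes for binding. In the embryonic cortex, Yap1 is known as a protein of the dividing radial glia that line the ventricle. RNA levels do not show whether the proteins are phosphorylated or where in the cell they lie.

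Reads assigned to genes numbered 51435667 for SVZ and 22050693 for cortex, and levels are given in CPM, counts scaled to the same total in both libraries. With 1 library per area, no difference below has a replicate check and no test between the areas was possible. Ratios are SVZ CPM over cortex CPM, and the intervals are exact 95% intervals of the read counts (Clopper-Pearson), which describe the counting error alone, since PCR copies cannot be told from separate molecules and no molecular identifiers are stated. Markers went in the direction of the labelled areas. However, radial glia line the ventricle, and the SVZ library also held reads of choroid plexus genes, given below. All 9 radial glial genes at a mean of 1 CPM or more were at least 2-fold higher in SVZ (median log2 ratio 4.43), and *Hopx*, the tenth, had 56 and 0 reads. All 8 proliferation genes and all 5 intermediate progenitor genes were likewise at least 2-fold higher in SVZ, whereas 7 of 10 neuronal genes were at least 2-fold higher in cortex and the other 3 were within 2-fold. In bulk tissue, fewer cells of a type and less RNA per cell cannot be told apart, and this holds for each ratio below.

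The coactivators and the main Tead factors were higher in SVZ, and the Lats kinases were close to equal in both. The minimum level was a mean of 1 CPM over both libraries, which a gene can reach through 1 library alone. Of the 10 members, 8 reached it. Among these, 5 (*Tead2*, *Yap1*, *Wwtr1*, *Tead1* and *Vgll4*) were at least 2-fold higher in SVZ, where 20.0% of all 12738 genes at the same minimum were, and 0 were at least 2-fold higher in cortex, against 15.6% of all genes. At least 4-fold higher in SVZ were 4 of the 8, against 10.2% of all genes, and 0 were 4-fold higher in cortex, against 7.01%. The median log2 ratio of all genes was 0.113. Reads of the 10 members summed to 389.9 CPM in SVZ and 141.8 CPM in cortex, 2.75-fold apart.

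**Figure D1:**
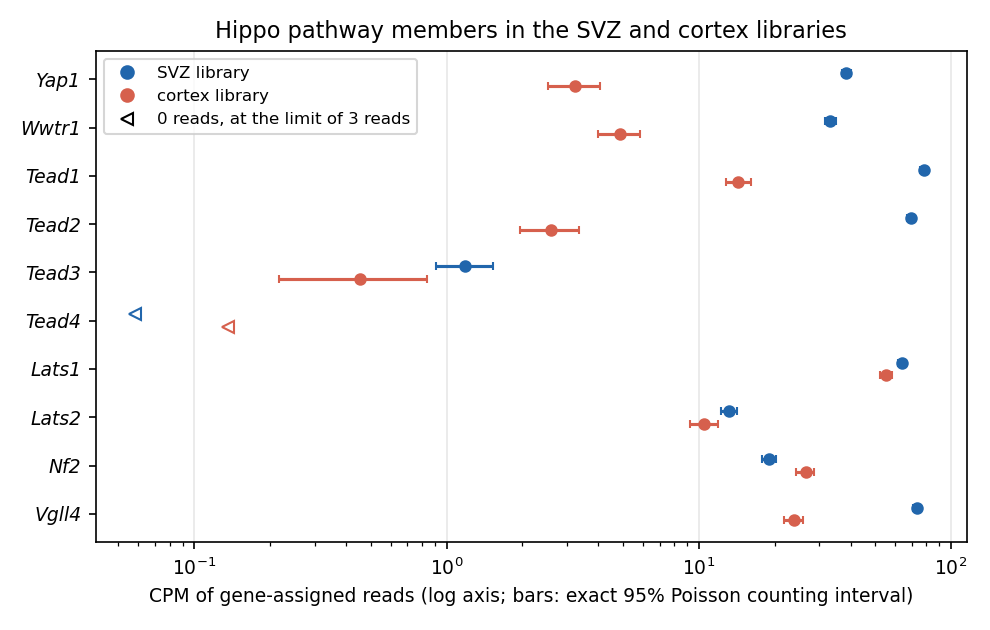
Level of each member in SVZ (blue) and the cortex library (red), in CPM on a log axis, with exact 95% Poisson counting intervals, and open triangles where no read was found. The libraries lie furthest apart for *Tead2* (69.4 and 2.58 CPM) and *Yap1* (38.5 and 3.22 CPM) and close together for *Lats1* (63.9 and 55.4 CPM).

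To show the start regions of the members with the highest ratios, the bases before the RefSeq start sites of *Tead2*, *Yap1* and *Wwtr1* are printed 5′ to 3′ on the gene's strand (GRCm38.p6), with those of *Ccn1*, a well-known Yap1 target described below. For *Tead2*, bases inside the GENCODE gene were left out. Capitals mark the M-CAT motif bound by Tead factors, searched as GGAATG and, for the other strand, CATTCC, with no other motif searched.
*Yap1*, chr9:8004597-8004846, minus strand: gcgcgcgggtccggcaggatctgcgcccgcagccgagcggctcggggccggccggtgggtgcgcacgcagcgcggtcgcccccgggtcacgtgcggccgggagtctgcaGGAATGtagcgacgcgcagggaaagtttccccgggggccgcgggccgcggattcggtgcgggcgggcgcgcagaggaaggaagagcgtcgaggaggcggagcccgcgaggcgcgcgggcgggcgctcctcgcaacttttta
*Wwtr1*, chr3:57575911-57576160, minus strand: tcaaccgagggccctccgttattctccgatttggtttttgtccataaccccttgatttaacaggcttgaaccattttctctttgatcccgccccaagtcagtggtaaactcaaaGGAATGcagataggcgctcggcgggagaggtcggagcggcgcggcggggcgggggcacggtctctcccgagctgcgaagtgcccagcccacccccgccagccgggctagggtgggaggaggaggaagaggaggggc
*Tead2*, chr7:45215542-45215752, plus strand: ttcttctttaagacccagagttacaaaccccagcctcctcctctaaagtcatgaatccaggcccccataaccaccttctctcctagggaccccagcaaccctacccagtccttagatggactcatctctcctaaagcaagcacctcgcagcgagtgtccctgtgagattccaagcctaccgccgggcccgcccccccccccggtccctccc
*Ccn1*, chr3:145649986-145650235, minus strand: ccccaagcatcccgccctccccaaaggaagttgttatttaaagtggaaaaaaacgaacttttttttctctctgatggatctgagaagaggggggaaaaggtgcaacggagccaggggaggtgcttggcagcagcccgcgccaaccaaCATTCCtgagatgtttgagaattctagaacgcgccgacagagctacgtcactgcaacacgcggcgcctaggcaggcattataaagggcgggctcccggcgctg

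The motif began 141 bases before the start site of *Yap1*, 136 before that of *Wwtr1* and, on the other strand, 103 before that of *Ccn1*, and was not in the *Tead2* window. RefSeq windows of 250 bases were matched for 8 of the 10 members, 13 windows in all, and the motif was in 6 of these 13, which belong to 4 genes (*Yap1*, *Wwtr1*, *Tead3* and *Vgll4*). Of the targets, 15 genes were matched and 6 held the motif, in 6 of 17 windows. The 6 were *Ccn1*, *Axl*, *Amotl2*, *Crim1* and *Ptpn14*, with log2 ratios of 7.12, 5.78, -0.12, -0.69 and -2.57, and *Ankrd1*, with 0 reads. The windows of *Tgfb2* and *F3*, at 5.24 and 3.69, did not hold it. The motif was in 12.6% of all 32851 such windows. This share is per window, so the counts of genes have no share over all genes to be read against. The windows of a gene can overlap, as those of *Wwtr1* do, which hold the same site. A match of these letters is a description and does not show binding.

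*Yap1*, the coactivator after which the pathway's output is usually named, lies on GRCm38 chromosome 9 (7931999 to 8004596, minus strand). It had 1982 reads in SVZ and 71 in cortex, or 38.5 and 3.22 CPM. This was a log2 ratio of 3.58 (interval 3.24 to 3.94), 12.0-fold higher in SVZ, and 5.03% of all genes at the minimum had a higher ratio. *Wwtr1*, its paralogue, whose start region is also printed above (chromosome 3, 57455649 to 57575910, minus strand), had 1711 and 107 reads (33.3 and 4.85 CPM). The log2 ratio of this gene was 2.78 (2.50 to 3.07), and 7.05% of genes had a higher one. The ratio of *Yap1* exceeded that of *Wwtr1* by 0.80 on the log2 scale, with an exact interval of 0.35 to 1.27, a difference that does not depend on how the libraries are scaled. Per kb of exon, *Yap1* made up 37.4% of the coactivator reads in SVZ (35.9% to 39.0%) and 25.5% in cortex (20.0% to 31.8%). Which of the paralogues was more abundant in SVZ depended on the length used, since *Yap1* took 50.7% when the longest annotated transcript replaced the union of all exons. In the cortex library *Wwtr1* was the more abundant with either length.

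*Tead2*, a Tead factor known for its expression in embryonic neural tissue, had the highest ratio of all members. On chromosome 7 (45215753 to 45233644, plus strand), it had 3569 reads in SVZ and 57 in cortex, or 69.4 and 2.58 CPM. The log2 ratio was 4.75 (4.37 to 5.15), 26.8-fold, and 2.59% of genes had a higher one. An exon of *Cd37*, on the opposite strand, overlaps *Tead2*. Reads in such overlaps are set aside in the unstranded counts, and summing the stranded columns gave 3577 and 59 reads. *Tead1*, a more broadly expressed family member (chromosome 7, 112679318 to 112906807, plus strand), had 4018 and 317 reads (78.1 and 14.4 CPM). The log2 ratio, 2.44 (2.28 to 2.61), was exceeded by 8.20% of genes.

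The remaining Tead factors were near or at the limit of detection. *Tead3* (chromosome 17, 28331671 to 28350817, minus strand) had 61 and 10 reads, or 1.19 and 0.454 CPM, under the minimum mean of 1 CPM. Its log2 ratio was 1.39 with a wide interval of 0.41 to 2.52. The 10 cortex reads of *Tead3* all lay on 1 strand, whereas the SVZ reads were divided 25 and 36. *Tead4* (chromosome 6, 128224288 to 128300823, minus strand) was at 0 reads in both libraries and in both stranded columns, which by the floor of 3 reads allows up to 0.0583 CPM in SVZ and 0.136 CPM in cortex, a 1-sided limit that lies below the upper end of the 2-sided Poisson interval of 0 reads (0.0717 and 0.167 CPM).

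The family was thus made up differently in the libraries. Per kb of exon, *Tead2* held 71.0% of the Tead reads in SVZ (70.0% to 71.9%) and *Tead1* 28.2%. In the cortex library *Tead2* held 32.4% (26.2% to 38.9%) and *Tead1* 63.6% (57.2% to 69.8%). The ratio of *Tead2* exceeded that of *Tead1* by 2.30 on the log2 scale (exact interval 1.89 to 2.74). *Tead2* was the leading Tead factor of the SVZ library with either length measure but not in undivided reads, of which it took 46.7%. *Tead1* led in cortex under all 3 measures.

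**Figure D2:**
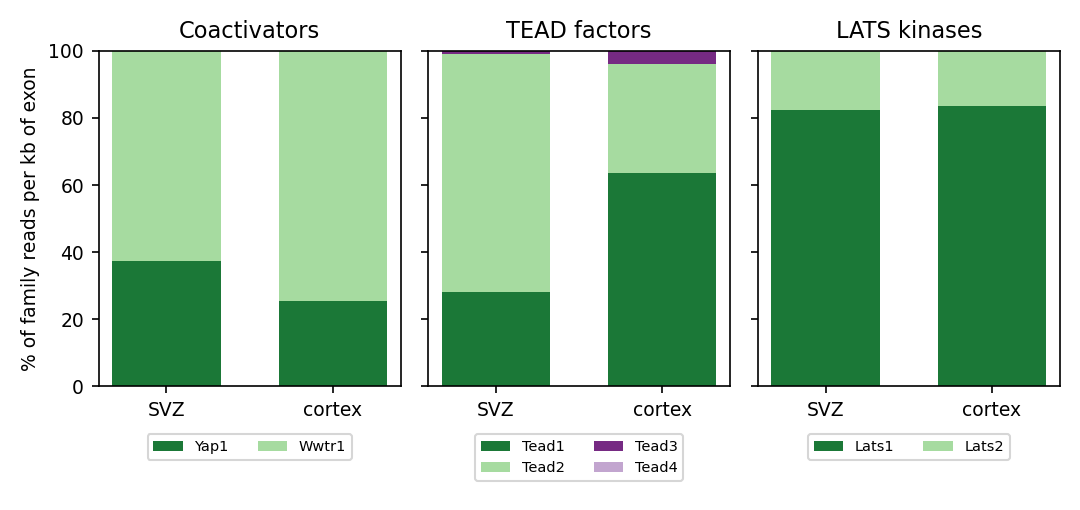
Share of each member in the reads per kb of exon of its family (y axis, %) in the SVZ and cortex libraries, for the coactivators, the Tead factors and the Lats kinases. *Tead2* goes from 71.0% of the Tead family in SVZ to 32.4% in cortex, while *Lats1* stays at 82.2% and 83.4% of the Lats kinases.

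The Lats kinases, which phosphorylate and restrain Yap1 and Wwtr1, were close to equal in both libraries. *Lats1* (chromosome 10, 7681214 to 7716460, plus strand) had 3287 and 1222 reads, or 63.9 and 55.4 CPM, and a log2 ratio of 0.21 (0.11 to 0.30). *Lats2* (chromosome 14, 57689662 to 57758388, minus strand) had 678 and 232 reads, or 13.2 and 10.5 CPM, and a log2 ratio of 0.33 (0.11 to 0.55). Both ratios were positive and within 2-fold, and 45.9% of genes exceeded *Lats1* and 40.5% exceeded *Lats2*. Both intervals, with lower ends of 0.110 and 0.108, hold the median of 0.113 over all genes. A difference between the ratios of the kinases was not detectable at this depth (0.12, exact interval -0.12 to 0.36). *Lats1* was the main kinase per kb of exon, with 82.2% of the Lats reads in SVZ and 83.4% in cortex.

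*Nf2*, which encodes the tumour suppressor Merlin (chromosome 11, 4765845 to 4849536, minus strand), was the only member with a higher level in cortex, among the 9 with reads. It had 980 SVZ reads and 585 cortex reads, or 19.1 and 26.5 CPM, and a log2 ratio of -0.48 (-0.63 to -0.33), within 2-fold. *Vgll4* (chromosome 6, 114860628 to 114969994, minus strand), which competes with Yap1 for Tead binding, had 3769 and 525 reads (73.3 and 23.8 CPM). The log2 ratio of this gene was 1.62 (1.49 to 1.76), 3.08-fold, and 12.7% of genes had a higher one. The antagonist was therefore on the same side as the coactivators, but by less.

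Groups of members were then set against each other within each library, so that library scaling plays no part. *Yap1* and *Wwtr1* together had 3693 reads in SVZ against 3965 of the Lats kinases, and 178 against 1454 in cortex. The number of coactivator reads per Lats read was thus 7.61-fold higher in SVZ (a log2 difference of 2.93, exact interval 2.69 to 3.17). Per *Vgll4* read it was 2.89-fold higher (2.42 to 3.47). There were 2.07 Tead reads per coactivator read in SVZ and 2.16 in cortex, a log2 difference of -0.06 (-0.33 to 0.21) that was not detectable at this depth. Per kb of exon, which gives the short *Tead2* more weight, the Tead level was 1.84 times that of the coactivators in SVZ and 1.22 times in cortex.

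In order of ratio, the members ran *Tead2*, *Yap1*, *Wwtr1*, *Tead1*, *Vgll4*, *Tead3*, *Lats2*, *Lats1* and *Nf2*. Neighbours in this order differed beyond counting error except *Vgll4* and *Tead3*, and *Lats2* and *Lats1*, while the interval between *Wwtr1* and *Tead1* came within 0.0034 of 0. That between *Tead3* and *Lats2*, 0.055 to 2.22, was wide and rested on the 10 cortex reads of *Tead3*, a gene under the minimum. In order of level per kb of exon, the SVZ library ran *Tead2* (14.5 CPM per kb), *Vgll4* (13.6), *Lats1* (8.76), *Wwtr1* (6.96), *Tead1* (5.76), *Yap1* (4.16), *Nf2* (2.79), *Lats2* (1.89) and *Tead3* (0.177). The cortex library ran *Lats1* (7.60 CPM per kb), *Vgll4* (4.41), *Nf2* (3.89), *Lats2* (1.51), *Tead1* (1.06), *Wwtr1* (1.02), *Tead2* (0.540), *Yap1* (0.348) and *Tead3* (0.0676). The levels of *Tead1* and *Wwtr1* in cortex did not differ beyond counting error. With the longest transcript as length, *Vgll4* came first in both libraries and *Wwtr1* fell behind *Tead1* and *Yap1* in SVZ. *Tead2* and *Yap1* were thus among the least abundant members in cortex, and *Lats1*, *Vgll4* and *Nf2* among the most.

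The other core genes lay on both sides of equality. Of 5, all at the minimum, 1 was at least 2-fold higher in SVZ and 0 in cortex, against 20.0% and 15.6% of all genes, and the median log2 ratio was -0.16. *Stk3* (Mst2), 1 of the paralogous kinases that activate the Lats kinases, was counted 3354 and 395 times, with a log2 ratio of 1.86 (1.71 to 2.02). Its paralogue *Stk4* (Mst1) was counted 2233 and 1067 times, with a log2 ratio of -0.16 (-0.26 to -0.05). The scaffold *Sav1* had a log2 ratio of -0.31 (-0.56 to -0.05). The Lats-binding adaptors *Mob1a* and *Mob1b* lay on opposite sides, at 0.88 (0.57 to 1.20) and -0.72 (-0.94 to -0.49), both within 2-fold.

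Upstream genes lay on both sides. Of 16, all at the minimum, 3 were at least 2-fold higher in SVZ and 3 in cortex, shares of the same order as the 20.0% and 15.6% of all genes, and the median log2 ratio was 0.21. The atypical cadherin gene *Fat1*, with 1753 and 104 reads, was at 2.85 (2.57 to 3.15). *Amot*, whose product binds Yap1, followed at 1.96 (1.68 to 2.25), and *Wwc1* (Kibra), a partner of Merlin, was at 1.23. On the cortex side, *Fat4*, which encodes the receptor of the cadherin Dchs1, was counted 1981 times in SVZ and 3384 times in cortex, for a log2 ratio of -1.99 (-2.08 to -1.91). *Dchs1* itself was within 2-fold, at -0.48 (-0.62 to -0.35). The kinase gene *Taok3* was at -1.82, and *Ptpn14*, a phosphatase gene whose product binds Yap1, had 20 and 51 reads and was at -2.57 (-3.40 to -1.80). *Ptpn14* reached the minimum through cortex alone, with 0.389 CPM in SVZ.

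Of 6 genes whose products inhibit the core kinases, 5 reached the minimum (*Strn*, at 43 and 11 reads, did not), 2 of them were at least 2-fold higher in SVZ and 0 in cortex, against 20.0% and 15.6% of all genes. *Ajuba*, an inhibitor of the Lats kinases, had 245 reads in SVZ and 1 in cortex, a log2 ratio of 6.72 with an interval of 4.22 to 12.0. *Ajuba* reached the minimum through SVZ alone, with 0.045 CPM in cortex. Its relative *Limd1* was at 1.74 (1.52 to 1.96), whereas *Wtip*, of the same family, was at -0.87 (-1.24 to -0.50) and *Strn3* was within 2-fold, at 0.68 (0.63 to 0.73). Of the other Vgll genes, *Vgll1* and *Vgll2* had 0 reads in both libraries, and *Vgll3* had 22 and 0.

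**Figure D3:**
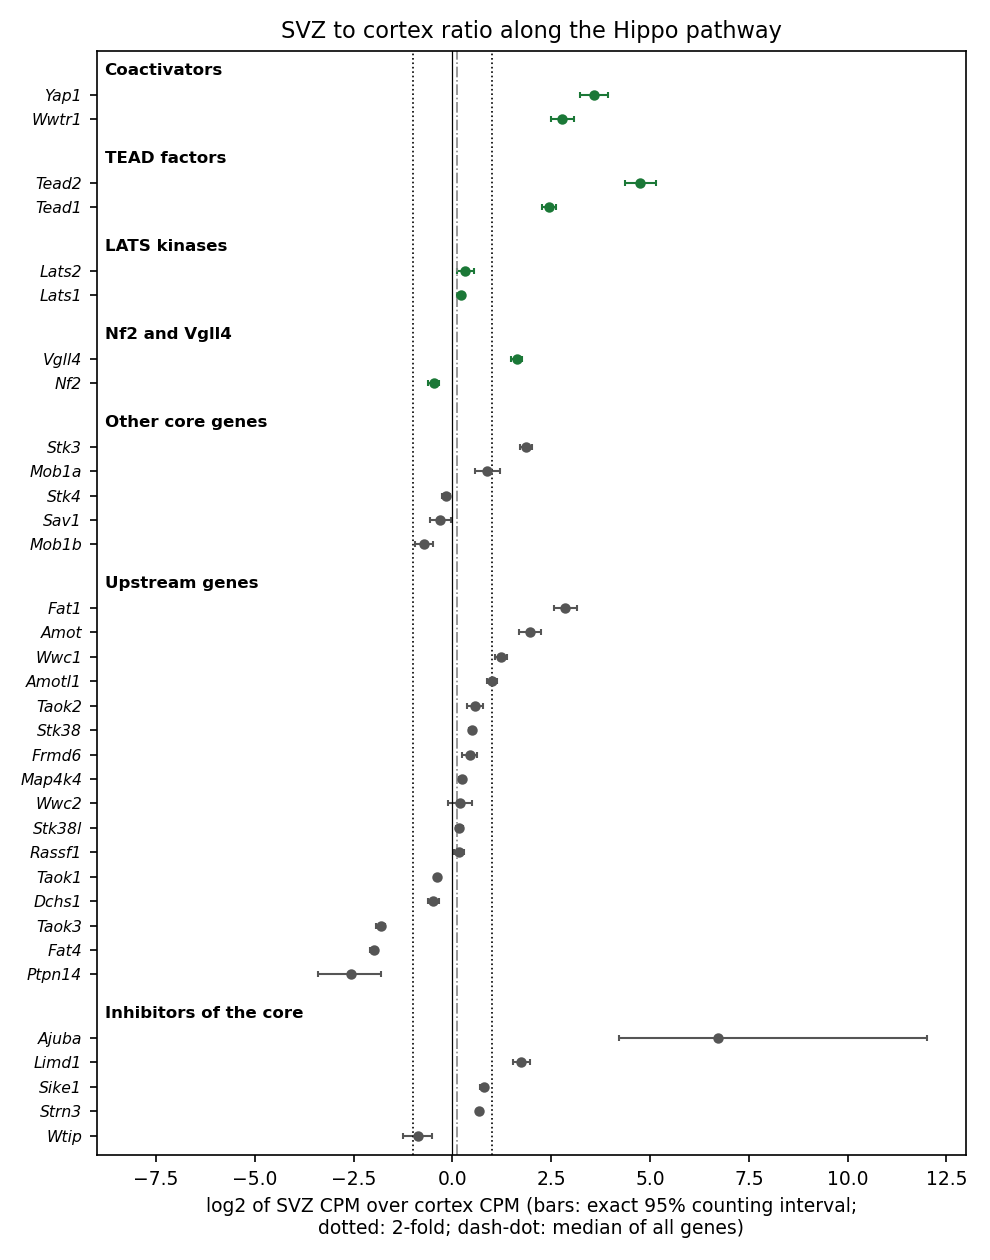
Log2 of SVZ CPM over cortex CPM (x axis) for the members (green, without *Tead3* and *Tead4*) and the other pathway genes (grey) that reached a mean of 1 CPM, with exact 95% counting intervals, dotted lines at 2-fold and a dash-dot line at the median of all genes. *Yap1*, *Wwtr1*, *Tead2* and *Tead1* stand right of the 2-fold line, the Lats kinases and *Nf2* inside it, and the upstream genes spread from -2.57 (*Ptpn14*) to 2.85 (*Fat1*).

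Finally, 22 genes known as YAP/TEAD targets in other cells, mostly cancer lines, were examined. They were not uniformly on the side of the coactivators. Of the 17 at the minimum, 6 were at least 2-fold higher in SVZ, 3 in cortex and 8 within 2-fold, with a median log2 ratio of 0.33. Of all genes, 20.0% and 15.6% were past 2-fold in these directions. *Ccn1* (Cyr61), a matricellular protein gene, had 4223 reads in SVZ and 13 in cortex, a log2 ratio of 7.12 (6.35 to 8.03). It is a standard target, as are *Ccn2*, *Ankrd1* and *Amotl2*, given below. *Ccdc80*, with 7028 and 32 reads, was at 6.56 (6.06 to 7.11), the receptor tyrosine kinase gene *Axl* at 5.78 (4.79 to 6.99), the ligand gene *Tgfb2* at 5.24 (4.75 to 5.77), and *F3*, the gene of tissue factor, at 3.69. These 5 lay above the other targets at the minimum, of which *Nuak2* was the next at 1.02. *Ccn1* and *Axl* reached the minimum through SVZ alone, with 0.590 and 0.363 CPM in cortex.

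On the cortex side, *Igfbp3*, an IGF-binding protein gene, was counted 60 times in SVZ and 2179 times in cortex, for a log2 ratio of -6.41 (-6.80 to -6.04). *Ptpn14* followed at -2.57 and *Gadd45b* at -1.91. Both reached the minimum through cortex alone, with 0.389 and 0.447 CPM in SVZ. *Amotl2*, an angiomotin gene used as a standard readout of Yap1, was nearly equal, with 2206 and 1031 reads, for a log2 ratio of -0.12 (-0.23 to -0.02). Of the targets under the minimum, *Ccn2* (Ctgf) was at 61 and 2 reads, which gave a log2 ratio of 3.71 (1.79 to 6.79). *Ankrd1* had 0 reads in both libraries, and *Myof* had 0 in SVZ and 28 in cortex, while *Nt5e* (45 and 17 reads) and *Dock5* (19 and 0) were also low. *Lats2* and *Ptpn14* stand both in this list and among the pathway genes above.

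**Figure D4:**
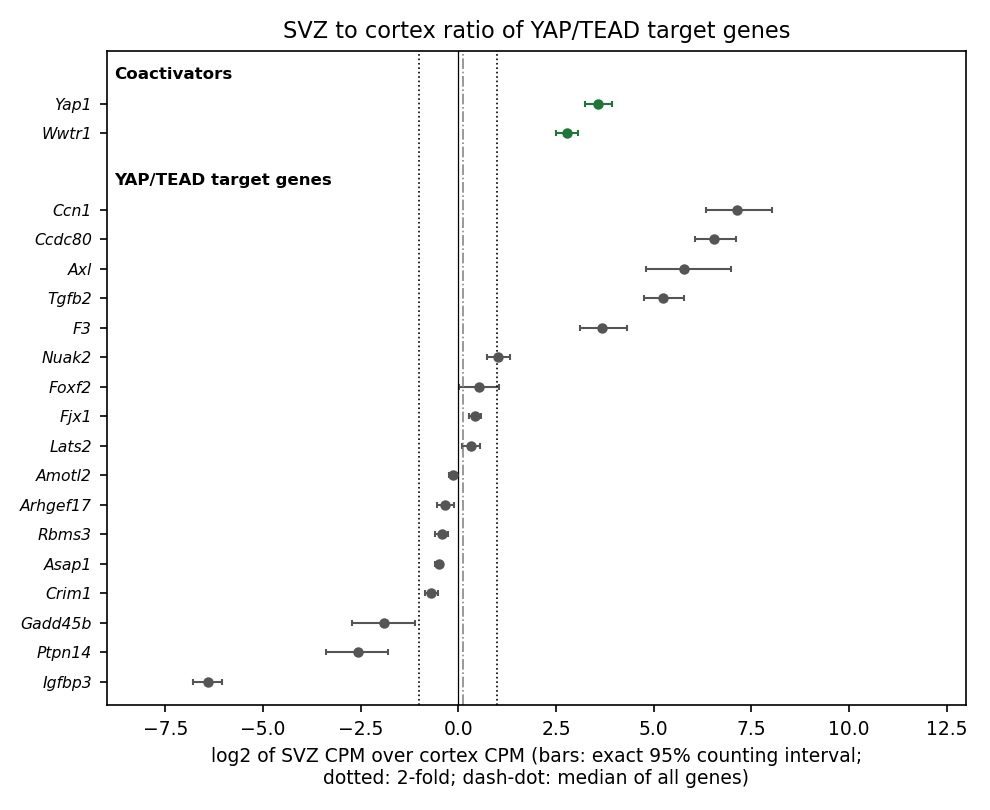
Log2 of SVZ CPM over cortex CPM (x axis) for the coactivators (green) and the YAP/TEAD targets that reached a mean of 1 CPM (grey), with exact 95% counting intervals, dotted lines at 2-fold and a dash-dot line at the median of all genes. *Ccn1*, *Ccdc80*, *Axl*, *Tgfb2* and *F3* lie between 3.69 and 7.12, and *Igfbp3* lies at -6.41.

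Marker lists of the cell types that a dissected area could hold were read beside these ratios. The ratios of *Yap1* (3.58), *Wwtr1* (2.78) and *Tead2* (4.75) lay inside the range of the 9 radial glial genes, 2.64 to 9.09, and that of *Tead1* (2.44) just under it. The range of the 8 proliferation genes, 1.55 to 6.33, held all 4 of these ratios, and that of the 8 microglial genes, 0.71 to 4.33, held those of *Yap1*, *Wwtr1* and *Tead1*. The range of the 5 intermediate progenitor genes, 2.89 to 11.29, held the ratios of *Yap1* and *Tead2* but not those of *Wwtr1* and *Tead1*. That of the 2 choroid plexus genes at the minimum, 4.33 to 8.37, held the ratio of *Tead2* alone. Yap1 and Wwtr1 are also known from vessel cells. Of 8 endothelial genes, 0 were at least 2-fold higher in SVZ and 1 in cortex, with a median log2 ratio of 0.14 and summed levels of 82.0 and 69.9 CPM. Of 6 mural genes, 2 were at least 2-fold higher in SVZ (*Notch3* and *Cspg4*), and the summed levels were 99.2 and 65.3 CPM. Meningeal genes were low, at 4.80 and 6.44 CPM in sum over 7 genes, with *Aldh1a2* at 0 in both and *Col1a1* at 0 in SVZ.

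Microglial and choroid plexus genes moved with the coactivators. Of 8 microglial genes, 7 were at least 2-fold higher in SVZ, with summed levels of 94.3 and 30.2 CPM. *Axl* is also known from macrophages. The 6 choroid plexus genes summed to 245.8 CPM in SVZ and 0.907 CPM in cortex, nearly all of it *Ttr* (12363 and 16 reads), and *Folr1*, *Clic6*, *Otx2* and *Kl* were at 0 in cortex, *Kl* also in SVZ. The part of any of these cell types, vessel cells included, in the ratios of the members and targets was not tested.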

How the data were processed

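Bulk RNA-seq of 2 LCM libraries, SVZ and cortex, was analysed. Adapters were trimmed by the authors (cutadapt 4.1) and read 1 was aligned to mm10 by STAR 2.7.9a, which also made the gene counts. The deposited values are raw counts in an unstranded column and 2 stranded ones. Reads that map to several places or overlap more than 1 gene are not in a gene's count. The deposited table of the comparison (CPM, fold change and its log10) was not used.

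Unstranded counts were divided by the sum of gene rows, 51435667 and 22050693 reads, without the 4 summary lines. For ratios a count of 0 was raised to 3 reads, and genes with at most 3 reads in each library got no ratio. Genes reaching a mean of 1 CPM were compared, and a fold of at least 2 was counted. Clopper-Pearson intervals, exact conditional intervals of odds ratios (between members) and Poisson intervals (single levels) were computed at 95%. With 1 library per area there was no test. Exon unions, longest transcripts and positions came from GENCODE M21 (GRCm38, the build named mm10), matched by symbol for all 128 listed genes. A further gene is not reported here. The annotation release behind the counts is not given in the sources used here. Alternatives tried were size factors of DESeq2 1.42.0, the TMM and upper-quartile methods of edgeR 4.0.16, totals that leave out the 10 most counted genes, summed stranded columns, a pseudocount of 1 CPM, other minimums and folds, and other lengths. Members and lists were chosen with earlier results of these data known. Named are all members, the core genes, *Fat4*, *Dchs1*, 4 standard targets, the 2 highest and 2 lowest ratios of each pathway list, genes under the minimum and, for markers, genes at 0 and the most counted. *Wwc1*, *Taok3*, *Axl*, *Tgfb2*, *F3*, *Nuak2*, *Gadd45b*, *Crim1*, *Notch3*, *Cspg4* and *Cd37* were named after their values were seen. Procedures were run on simulated Poisson counts, which hold no PCR copies and so cannot show how the intervals behave with them. Python 3.11.15, scipy 1.17.1, pandas 2.3.3 and R 4.3.3 were used.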

Additional observations from a re-analysis of the deposited data

How the results depend on the processing

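No paired analysis was possible because SVZ and cortex were 1 library each, which also left no replicate to omit. The count of 5 members at least 2-fold higher in SVZ stayed within 1.5 times of that value, and the count of 0 in cortex stayed at 0, under each alternative run. Of 54 member ratios recomputed over 6 alternatives, 0 changed sign and 3 left their counting interval: *Yap1* at 3.23 and *Tead2* at 4.30 with a pseudocount of 1 CPM, which draws ratios of low counts towards 0, and *Lats1* at 0.11 under upper-quartile scaling, which moved the median of all genes by -0.0988 (log2). The shares within families depended on length. In undivided reads *Yap1* took 53.7% of the coactivator reads in SVZ and 39.9% in cortex, and *Tead2* 46.7% and 14.8% of the Tead reads. With the longest transcript as length *Yap1* took 50.7% and 37.1%, and *Lats2* 22.3% and 20.9% of the Lats reads. In each case the share of *Yap1* and of *Tead2* was higher in SVZ. Depth limits genes with few cortex reads, such as *Tead3* (10 reads), *Ccn2* (2) and *Ajuba* (1).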
